A study of Mus musculus with 9 samples.

Results

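The cell cycle and DNA replication genes described here are 42 genes, 18 of DNA replication and 24 of mitosis, read out of a count table of 55401 rows. They were chosen by symbol, and where a symbol repeats the row with the largest total was taken. All 42 were found in the table and all 42 passed the filter on low counts, so 42 of 19051 genes tested are described. The fewest reads of a member in any heart were 5, the median was 143, and 3 members had under 10 reads in some heart.

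RNA of whole mouse hearts was sequenced in 3 groups of 3 hearts. Control hearts were wild type and belong to the sham-operated arm. TAC hearts were wild type after transverse aortic constriction (TAC), and are labelled 12 weeks; in this operation a band narrows the aortic arch and raises the pressure against which the left ventricle works. KO-TAC hearts, also constricted and labelled 12 weeks, came from mice with floxed Myc alleles whose inducible Cre is driven by Tcf21, expressed in cardiac fibroblasts. Tamoxifen at 45 mg/kg for 5 days is described for the knockout line. Male mice aged 8 to 12 weeks were operated on; the sources used here give neither the strain nor whether wild-type mice received tamoxifen. A knockout without constriction and a Cre control were not analysed here, so Cre and tamoxifen cannot be told apart from loss of Myc. No label ties each heart to a separate mouse, and the p-values then cover only the spread among these samples. The deletion acts in fibroblasts, and the RNA is of the whole heart: fewer cells of a type and less RNA per cell cannot be told apart.

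A dividing cell first licenses origins of replication by loading the MCM helicase onto DNA with Cdc6 and Cdt1. Cyclin E and E2F transcription factors then start DNA synthesis, and cyclins A and B with Cdk1 drive mitosis, in which kinesins and kinetochore proteins move the chromosomes and the anaphase-promoting complex ends the phase. Transcription follows this order: E2F sites serve many replication genes, while the CHR element (cell cycle genes homology region) together with CCAAT boxes serves many mitotic genes, which FoxM1 and B-Myb activate late in the cycle. Adult cardiomyocytes seldom divide, and in the loaded heart fibroblasts, endothelial cells and macrophages are known to enter the cycle. Myc, the gene deleted in the KO-TAC mice, binds the E-box and promotes entry into the cycle.

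The promoter windows of the members carry the 2 motif classes unequally, and 5 windows are printed because the results below turn on these genes. Windows of 300 bases, from 250 before to 50 after the RefSeq transcription start (GRCm38.p6), were found for 34 of the 42 members, 20 of mitosis and 14 of replication, and for 27025 genes of the table. The motifs were searched on both strands, and no match says only that these letters are not in the windows searched. Shares are of genes, and a gene with several windows counted as holding a motif if any window did. The CHR letters TTTGAA were present in 15 of 20 mitosis genes (75%), in 1 of 14 replication genes (7.14%) and in 20.2% of all genes with a window. The CCAAT letters were in 85% of mitosis, 57.1% of replication and 41.1% of all these genes, and CHR with CCAAT in 70%, 7.14% and 8.97%. One of the E2F forms TTTCCCGC, TTTGGCGC, TTCCCGCC and TTTCGCGC, which can overlap one another, was in 50% of replication, 5% of mitosis and 4% of all these genes. The E-box CACGTG was in 7.14% of replication, 5% of mitosis and 8.09% of all these genes. The first window, of the helicase subunit gene Mcm6, has E2F and CCAAT letters; the next 2, of the late mitotic gene Ube2c and of Cdk1, have CHR and CCAAT letters; Ccnb1 and Cenpf, the last 2, have CCAAT letters, and Cenpf has a CHR just after its start. Cdk1 also holds an E2F form. Capitals mark these motif letters on either strand, and each window reads 5′ to 3′ in the direction of transcription.
Mcm6, chr1:128359656-128359955, - strand: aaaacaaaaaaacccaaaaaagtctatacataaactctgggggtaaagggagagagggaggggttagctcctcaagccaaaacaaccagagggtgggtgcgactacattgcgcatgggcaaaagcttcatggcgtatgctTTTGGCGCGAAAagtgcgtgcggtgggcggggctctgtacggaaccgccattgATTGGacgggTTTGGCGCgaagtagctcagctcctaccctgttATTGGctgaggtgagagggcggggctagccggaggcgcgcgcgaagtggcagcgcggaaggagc
Ube2c, chr2:164769679-164769978, + strand: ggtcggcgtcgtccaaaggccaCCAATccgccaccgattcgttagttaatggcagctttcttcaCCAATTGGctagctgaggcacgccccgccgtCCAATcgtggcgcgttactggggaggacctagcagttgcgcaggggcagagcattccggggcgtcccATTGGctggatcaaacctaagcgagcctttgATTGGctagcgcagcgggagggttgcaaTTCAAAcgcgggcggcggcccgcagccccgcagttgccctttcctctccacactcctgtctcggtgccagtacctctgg
Cdk1, chr10:69352863-69353162, - strand: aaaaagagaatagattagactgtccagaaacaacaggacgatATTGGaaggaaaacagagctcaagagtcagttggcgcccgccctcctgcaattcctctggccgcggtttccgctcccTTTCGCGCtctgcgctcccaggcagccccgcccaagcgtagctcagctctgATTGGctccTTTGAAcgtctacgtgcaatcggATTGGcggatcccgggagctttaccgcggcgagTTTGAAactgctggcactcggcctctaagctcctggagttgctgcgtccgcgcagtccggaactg
Ccnb1, chr13:100786437-100786736, - strand: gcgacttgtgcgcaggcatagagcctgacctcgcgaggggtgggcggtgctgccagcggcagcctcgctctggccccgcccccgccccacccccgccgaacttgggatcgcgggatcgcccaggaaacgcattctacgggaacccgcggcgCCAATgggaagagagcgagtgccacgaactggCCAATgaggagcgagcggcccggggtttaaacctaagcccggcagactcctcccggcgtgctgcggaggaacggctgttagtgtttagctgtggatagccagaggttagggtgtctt
Cenpf, chr1:189688037-189688336, - strand: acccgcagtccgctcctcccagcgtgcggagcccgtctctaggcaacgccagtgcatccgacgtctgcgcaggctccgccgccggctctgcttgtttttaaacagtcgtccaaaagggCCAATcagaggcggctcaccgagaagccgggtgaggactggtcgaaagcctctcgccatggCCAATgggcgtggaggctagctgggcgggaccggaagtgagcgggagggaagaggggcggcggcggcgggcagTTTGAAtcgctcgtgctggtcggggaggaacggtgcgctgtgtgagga

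Library totals were 59702513 to 109162107 counts, and TAC replicate 3, the smallest library, stood apart. It was the highest of the 9 hearts for 29.6% and the lowest for 30.8% of all genes tested, and its TMM scaling factor was 1.448 against 0.853 to 1.245 in the others. Even so, its 27343 reads on the 42 genes exceeded the 7970 to 19062 reads of any other heart. The targeted gene Myc was at 2.15, 2.47 and 1.55 CPM (counts scaled to library size) in control, at 8.93, 6.22 and 14.2 in TAC and at 4.22, 1.87 and 4.75 in KO-TAC hearts. Myc was thus lower in every KO-TAC heart than in every TAC heart, in RNA of all cell types of the heart. Of all genes 4.8% were lower in KO-TAC in this way, without overlap. The fitted log2 difference of Myc was -1.44 ± 0.41 (SE, edgeR unadjusted p = 0.0063, adjusted p = 0.56). Values of a group are listed for its replicates 1, 2 and 3 in turn. Main results below are also given without TAC replicate 3.

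The central pattern was that of a single heart. TAC replicate 3 was the highest of the 9 hearts for 33 of the 42 members (78.6%), and for 23 of the 24 mitosis members, all but Cenpf. Of the replication members it was the highest for 10 of 18. Its median log2 difference from the control mean was 2.28 over mitosis and 0.83 over replication members. TAC replicates 1 and 2 had mitosis medians of 0.45 and -0.28, close to the range of the control hearts, -0.27 to 0.62. KO-TAC hearts had mitosis medians of 0.65, 0.08 and 0.02. TAC replicate 2 was the lowest heart for 14 members (33.3%, against 14.6% of all genes). The TAC group therefore held both the highest and, for 33.3% of the set, the lowest heart, and the median SD of its members was 1.216 on the log2 scale, against 0.457 in control and 0.331 in KO-TAC hearts. Over all genes tested the same spread was 0.604, 0.171 and 0.33, so TAC hearts varied widely beyond this set.

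**Figure D1:**
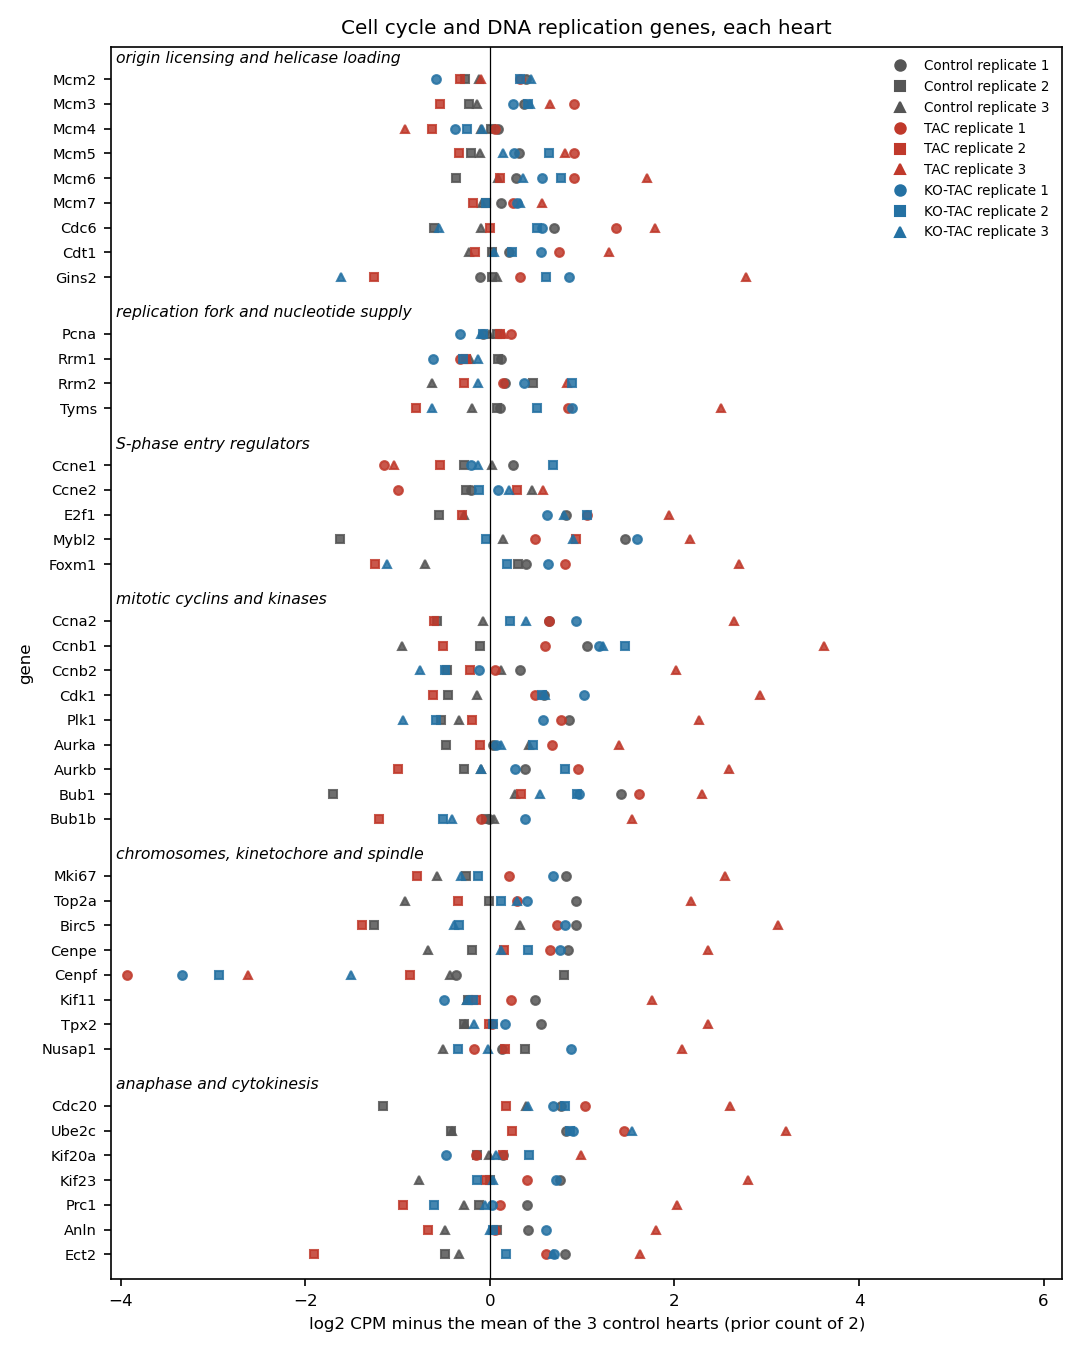
Log2 CPM of each of the 42 genes minus the mean of the 3 control hearts (x axis), 1 row per gene by role, with grey control, red TAC and blue KO-TAC hearts and a marker shape per replicate. The red triangles (TAC replicate 3) are the rightmost points of 33 rows, and Cenpf is the row where TAC and KO-TAC hearts lie farthest to the left.

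In origin licensing and helicase loading, 9 genes, TAC replicates 1 and 3 had near medians and the same genes above control, though single genes differed between them. Mcm6, a subunit of the hexameric MCM helicase, was at 8.34, 5.29 and 7.33 CPM in control, 13, 7.41 and 22.4 in TAC and 10.2, 11.7 and 8.8 in KO-TAC hearts. Mcm5, another subunit, was at 3.89, 2.71 and 2.88 CPM in control, 5.89, 2.48 and 5.49 in TAC and 3.75, 4.88 and 3.45 in KO-TAC hearts. In both genes TAC replicates 1 and 3 were above every control heart and TAC replicate 2 was not. Mcm4 was at 9, 8.49 and 7.87 CPM in control, 8.8, 5.46 and 4.46 in TAC and 6.46, 7.1 and 7.98 in KO-TAC hearts. Mcm2 was at 8.43, 5.35 and 5.93 CPM in control, 8.13, 5.16 and 6.06 in TAC and 4.31, 8.08 and 8.8 in KO-TAC hearts. Subunits of 1 complex thus differed: TAC replicate 3 was 1.70 above the control mean on the log2 scale for Mcm6, 0.81 above for Mcm5, and at -0.09 for Mcm2 and -0.92 for Mcm4. Cdc6, the loading factor that recruits MCM to origins, was at 0.982, 0.383 and 0.55 CPM in control, 1.57, 0.593 and 2.12 in TAC and 0.891, 0.857 and 0.399 in KO-TAC hearts. The same 7 of the 9 genes (Mcm3, Mcm5, Mcm6, Mcm7, Cdc6, Cdt1 and Gins2) were above every control heart in TAC replicate 1 and in TAC replicate 3, and the group median of the 2 hearts was 0.75 and 0.81. Gins2, a factor of the active helicase, differed most between them, at 0.33 and 2.78 from the control mean. Of all genes 41.6% and 42.3% lay above every control in these hearts.

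At the replication fork and in nucleotide supply, 4 genes, fitted differences between groups were small except in thymidylate synthase. Single hearts differed more for Rrm2, from 1.4 CPM in control replicate 3 to 4.06 in KO-TAC replicate 2. Pcna, the sliding clamp of DNA polymerase and the member with the highest level per length (9.83 CPM per kb of merged exons in control hearts), was at 22.5, 24.9 and 23.4 CPM in control, 27.6, 25.4 and 26 in TAC and 18.8, 22.5 and 22 in KO-TAC hearts. All TAC hearts lay above all control and all KO-TAC hearts, by small margins, and TAC replicate 3 was not the highest. Rrm1, the large subunit of ribonucleotide reductase, was at 16.2, 15.8 and 12.8 CPM in control, 11.9, 12.4 and 12.5 in TAC and 9.7, 12.2 and 13.5 in KO-TAC hearts, so the highest TAC heart was just below the lowest control. Tyms, which makes thymidylate, was at 1.76, 1.72 and 1.42 CPM in control, 2.95, 0.92 and 9.4 in TAC and 3.04, 2.32 and 1.04 in KO-TAC hearts. Tyms in TAC spanned the range of both other groups.

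The 5 regulators grouped under S-phase entry split; this group counts Foxm1 and Mybl2 with the replication members, although both also act on mitotic genes. E2f1, an activator of replication genes, was at 1.84, 0.69 and 0.837 CPM in control, 2.14, 0.827 and 3.98 in TAC and 1.58, 2.14 and 1.8 in KO-TAC hearts. Foxm1, the activator of late mitotic genes, was at 1.93, 1.82 and 0.897 CPM in control, 2.62, 0.608 and 9.66 in TAC and 2.29, 1.67 and 0.669 in KO-TAC hearts. Both had TAC replicate 3 as the highest heart and overlapped between groups, and for Foxm1 that heart was 2.70 above the control mean on the log2 scale. Ccne1, cyclin E1, went the other way, at 1.45, 0.996 and 1.23 CPM in control, 0.532, 0.827 and 0.579 in TAC and 1.05, 1.97 and 1.11 in KO-TAC hearts. Every TAC heart was below every control and every KO-TAC heart for Ccne1, TAC replicate 2 included.

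Mitotic cyclins and kinases, 9 genes, were highest in TAC replicate 3 without exception. Ccnb1, cyclin B1, was at 0.646, 0.276 and 0.144 CPM in control, 0.465, 0.203 and 3.95 in TAC and 0.707, 0.871 and 0.733 in KO-TAC hearts. Cdk1, its kinase partner, was at 1.23, 0.582 and 0.73 CPM in control, 1.14, 0.515 and 6.32 in TAC and 1.66, 1.21 and 1.24 in KO-TAC hearts. TAC replicates 1 and 2 were inside or below the control range in both genes, while the KO-TAC hearts were above all controls for Ccnb1. Ccna2, cyclin A2, was at 2.92, 1.24 and 1.77 CPM in control, 2.91, 1.22 and 11.8 in TAC and 3.56, 2.18 and 2.44 in KO-TAC hearts. Ccnb2, cyclin B2, was at 1.29, 0.736 and 1.11 CPM in control, 1.06, 0.873 and 4.21 in TAC and 0.935, 0.717 and 0.592 in KO-TAC hearts. Plk1, the polo-like kinase of mitotic entry and exit, was at 1.45, 0.536 and 0.622 CPM in control, 1.36, 0.686 and 3.89 in TAC and 1.18, 0.52 and 0.399 in KO-TAC hearts. In these 3 genes too, only TAC replicate 3 lay above every control heart within the TAC group. Aurka, Aurkb and Bub1, 3 more of the 9 (33.3%, against 41.6% of all genes), were above every control in TAC replicate 1 as well. The group median of TAC replicate 3 was 2.3 and that of TAC replicate 1 was 0.64, beside 0.59 in control replicate 1.

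Genes of chromosomes, the kinetochore and the spindle, 8 in number, repeated this. Mki67, which codes for the Ki-67 protein stained to count dividing cells, was at 9.22, 4.31 and 3.46 CPM in control, 5.97, 2.96 and 30.3 in TAC and 8.35, 4.72 and 4.14 in KO-TAC hearts. Top2a, the topoisomerase that untangles sister chromosomes, was at 6.33, 3.3 and 1.75 CPM in control, 4.09, 2.62 and 15.1 in TAC and 4.39, 3.6 and 4.07 in KO-TAC hearts. Control replicate 1 was above both other control hearts and above TAC replicates 1 and 2 for both genes. Birc5, survivin of the chromosomal passenger complex, was at 1.49, 0.307 and 0.969 CPM in control, 1.29, 0.281 and 6.87 in TAC and 1.38, 0.604 and 0.579 in KO-TAC hearts. Kif11, the kinesin that separates spindle poles, was at 2.39, 1.43 and 1.42 CPM in control, 1.99, 1.53 and 5.79 in TAC and 1.19, 1.49 and 1.42 in KO-TAC hearts. No gene of this group was above every control heart in TAC replicate 1, and 7 of 8 were in TAC replicate 3. Of all genes 41.6% and 42.3% were.

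Genes of anaphase and cytokinesis, 7 in number, were also highest in TAC replicate 3 without exception. Ube2c, the ubiquitin-conjugating enzyme of the anaphase-promoting complex, was at 1.16, 0.475 and 0.478 CPM in control, 1.81, 0.764 and 6.17 in TAC and 1.22, 1.19 and 1.92 in KO-TAC hearts. Knockout hearts were all above the controls for Ube2c, as for Ccnb1 and Mcm6. Kif23, a kinesin of the central spindle, was at 2.33, 1.36 and 0.789 CPM in control, 1.81, 1.33 and 9.64 in TAC and 2.26, 1.24 and 1.4 in KO-TAC hearts. Prc1, which bundles the microtubules of the central spindle, was at 3.26, 2.27 and 2.03 CPM in control, 2.67, 1.28 and 10.1 in TAC and 2.5, 1.62 and 2.38 in KO-TAC hearts. For both, TAC replicates 1 and 2 lay within or below the control range. Of the 7 genes 2, Cdc20 and Ube2c, were above every control in TAC replicate 1 (28.6%, against 41.6% of all genes).

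**Figure D2:**
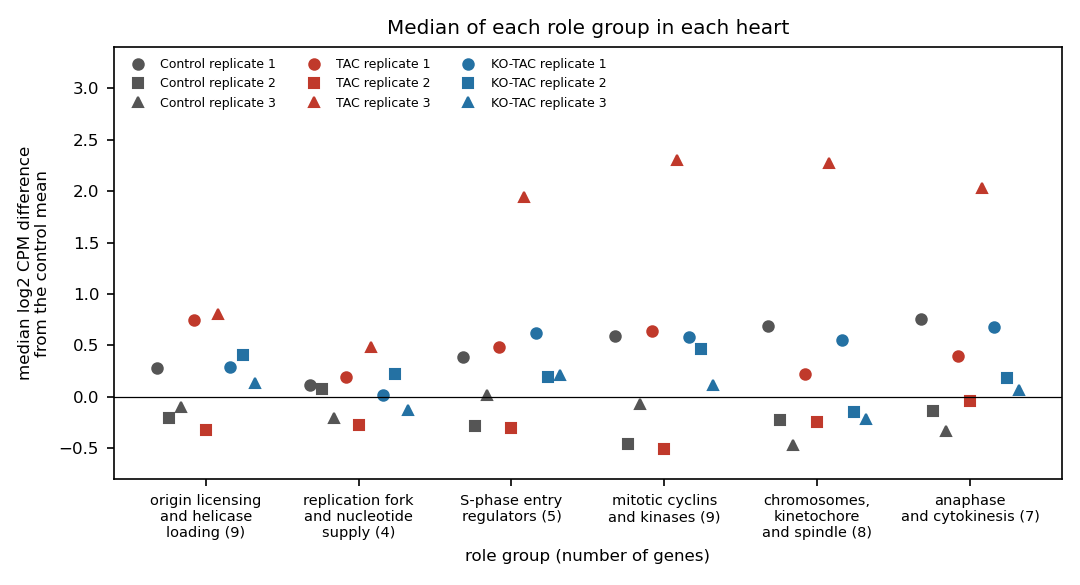
Median log2 CPM difference from the control mean (y axis) of the genes of each role group (x axis, with the number of genes), 1 point per heart. TAC replicates 1 and 3 lie at 0.75 and 0.81 for origin licensing and apart at 0.64 and 2.3 for mitotic cyclins and kinases.

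Cenpf, a large kinetochore protein of mitosis, departed from the other members. Its level was 26.1, 58.7 and 24.9 CPM in control, 2.18, 18.6 and 5.44 in TAC and 3.3, 4.4 and 11.9 in KO-TAC hearts, so every loaded heart was below every control heart. The fitted log2 difference was -2.07 ± 0.77 (SE) in TAC against control hearts (edgeR unadjusted p = 0.024, adjusted p = 0.18), and the loaded knockout hearts differed from control by -2.49 ± 0.78 (unadjusted p = 0.01, adjusted 0.84). Without TAC replicate 3 the first was -1.83. Per kb of merged exons Cenpf was at 2.37 CPM in control hearts, above the 0.563 of Mki67, and at 0.566 in TAC against 1.3 for Mki67. Cenpf lies at chr1:189640606-189688086 on the minus strand (GRCm38) and shares no exon bases with another annotated gene. Cardiomyocyte markers were lower in part of the same hearts (summed values below), and unequally, as 2 of the 9 chosen after their values were seen show. Ryr2, the calcium release channel, was at 1610, 1330 and 1180 CPM in control, 315, 1030 and 89.3 in TAC and 396, 594 and 1120 in KO-TAC hearts, below every control in each loaded heart. Myl2, a myosin light chain, was at 5450, 5240 and 5570 CPM in control, 6660, 6770 and 1260 in TAC and 5630, 6200 and 5890 in KO-TAC hearts, above every control in 5 of 6 loaded hearts. Of the other markers Atp2a2 and Pln were, like Ryr2, below every control in each loaded heart. Their highest loaded hearts were at 12200 and 4500 CPM, against at least 12400 and 4890 in control. For Myh6, Tnnt2, Tnni3, Actc1 and Myl3, TAC and control hearts overlapped. The part of cell makeup in the Cenpf values was not tested.

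**Figure D3:**
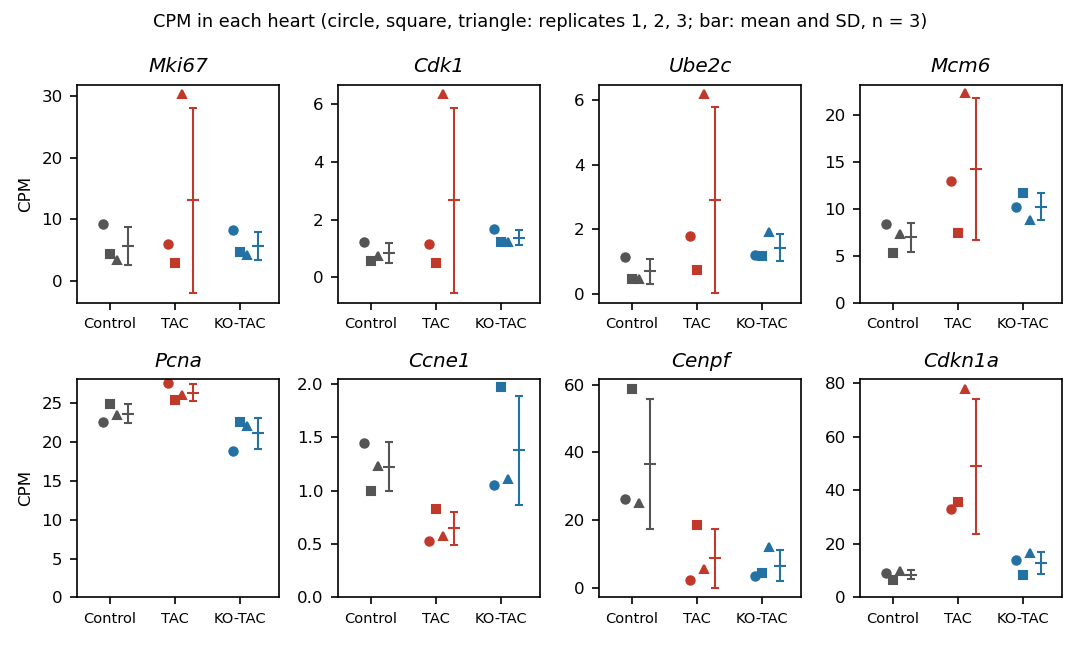
CPM (y axes from 0 or below the error bars) of 8 genes in each heart by group, with circles, squares and triangles for replicates 1, 2 and 3 and a bar for the mean and SD (n = 3). Mki67, Cdk1, Ube2c and Mcm6 peak in TAC replicate 3 at 30.3, 6.32, 6.17 and 22.4, Ccne1 is lowest in the 3 TAC hearts, Cenpf is highest in control hearts and Cdkn1a is highest in the 3 TAC hearts.

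Whether pressure overload altered these genes in wild-type hearts was asked by TAC against control. None of the 42 passed at an adjusted p under 0.05 in edgeR, where 0% of all genes did, and the smallest adjusted p of a member was 0.17. The fitted difference was above 0 for 37 of 42 members, against 51.5% of all genes, and its median was 0.96 log2 units against 0.03 over all genes. The median was 1.18 over mitosis members (23 of 24 higher) and 0.49 over replication members (14 of 18 higher). Without TAC replicate 3 the median over the members was 0, with 22 of 42 higher, the mitosis median was -0.05 and the replication median 0.1; edgeR then called no member and 0.0102% of all genes. At an unadjusted p under 0.05 there were 2 members higher, Mcm6 and Ube2c (4.76%, against 13.2% of all genes), and 2 lower, Ccne1 and Cenpf (4.76%, against 8.08%). TAC and control hearts did not overlap for 1 member higher in TAC, Pcna (2.38%, against 14.1% of all genes), and for 3 lower, Rrm1, Ccne1 and Cenpf (7.14%, against 14%). Each of these 4 shares was below that of all genes, a description with no test.

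Among the named members Ccnb1 had the largest fitted difference, 2.11 ± 1 (SE) on the log2 scale (adjusted p = 0.25), followed by Ube2c at 2.04 ± 0.72 (0.17) and Cdk1 at 1.65 ± 0.79 (0.26). Without TAC replicate 3 these were -0.10, 0.85 and -0.04. Mki67 was at 1.21 ± 0.76 (adjusted p = 0.36) and at -0.35 without that heart. Mcm6 was at 1.03 ± 0.36 (adjusted p = 0.18) and stayed at 0.53 without it, and Tyms was at 1.44 ± 0.71 (adjusted p = 0.27) and at 0.23 without it. Lower values were fitted for Ccne1, -0.93 ± 0.39 (adjusted p = 0.22), and Mcm4, -0.44 ± 0.26 (adjusted p = 0.34), and without that heart they were -0.86 and -0.26. DESeq2 called 2 members, Ube2c as higher (adjusted p = 0.044) and Cenpf as lower (adjusted p = 0.048), where it called 4.98% of all genes higher and 2.6% lower. limma-voom with quality weights, which gave TAC replicates 2 and 3 weights of 0.233 and 0.167 and TAC replicate 1 a weight of 1.87, called Mcm3, Mcm5, Mcm6, Cdc6 and Ube2c as higher and Cenpf as lower (14.1% and 16.1% of all genes). Without TAC replicate 2 edgeR called 13 members higher and Cenpf lower, where 13.5% and 14% of all genes were called. These 13 were 7 replication members (Mcm3, Mcm5, Mcm6, Cdt1, Tyms, E2f1 and Foxm1) and 6 mitosis members (Aurkb, Ccna2, Ccnb1, Cdc20, Cdk1 and Ube2c). DESeq2 without TAC replicate 2 called 24 members higher and 2 lower (16.5% and 17% of all genes).

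**Figure D4:**
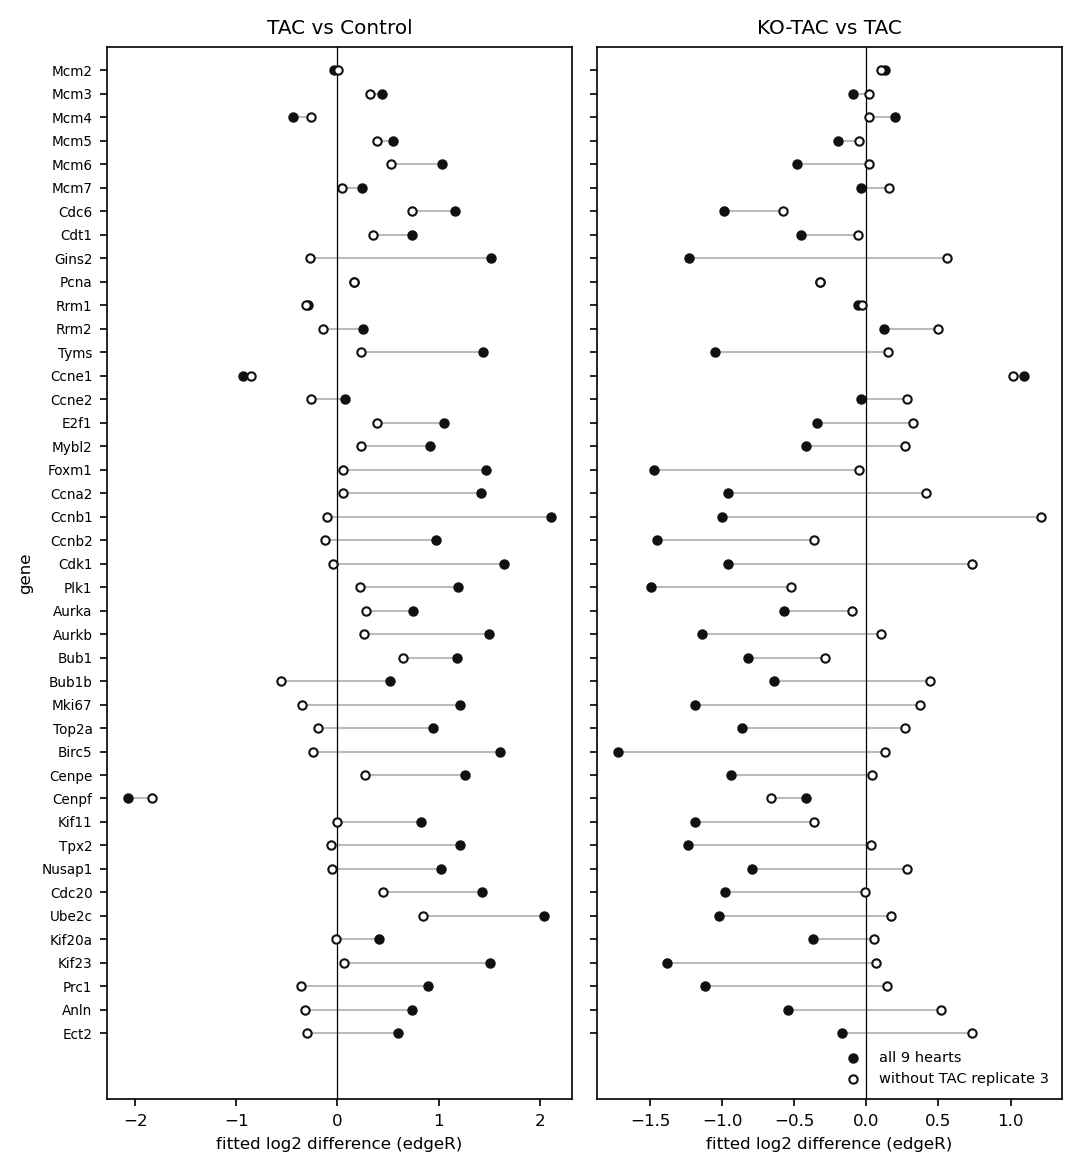
Fitted edgeR log2 difference (x axes) of each of the 42 genes in TAC against control (left) and KO-TAC against TAC hearts (right), with all 9 hearts (filled) and without TAC replicate 3 (open). The open points have medians of 0 on the left and 0.1 on the right. Ccne1 and Cenpf stay on their side in both panels, as do Ube2c at 0.85 on the left and Plk1 at -0.52 on the right. Ccnb1 moves from -1 to 1.21 on the right.

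Whether loss of Myc in fibroblasts altered them in the loaded heart was asked by KO-TAC against TAC, a comparison that shares the 3 TAC hearts with the one above. None of the 42 passed in edgeR (0% of all genes) or in DESeq2 (0.354% higher and 0.508% lower of all genes). The fitted difference was below 0 for 38 of 42 members and for all 24 mitosis members, with a median of -0.81 against 0.01 over all genes. The median was -0.97 over mitosis and -0.26 over replication members. Without TAC replicate 3 the median over the members was 0.1, with 29 of 42 above 0, the mitosis median was 0.12 and the replication median 0.06. At an unadjusted p under 0.05 there was 1 member higher, Ccne1 (2.38%, against 2.94% of all genes), and 2 lower, Ccnb2 and Kif11 (4.76%, against 4.51%). The groups did not overlap for Ccne1, higher in KO-TAC (2.38%, against 5.17%), and for Pcna and Kif11, lower in KO-TAC (4.76%, against 4.8%).

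Ccne1 was 1.09 ± 0.39 (SE) higher in KO-TAC on the log2 scale (edgeR adjusted p = 0.65), and 1.02 without TAC replicate 3. Pcna was at -0.32 ± 0.15 (adjusted p = 0.67) with all hearts, and its difference was also -0.32 without that heart. The largest negative values were those of Birc5 (-1.72 ± 0.99, adjusted p = 0.7), Plk1 (-1.49 ± 0.71, 0.67) and Foxm1 (-1.47 ± 0.84, 0.7), and without TAC replicate 3 they were 0.13, -0.52 and -0.05. Kif11 was at -1.19 ± 0.5 and Ccnb2 at -1.45 ± 0.6 (adjusted p = 0.66 each), and without it both were at -0.36. Kif23 was at -1.38 ± 0.73 (adjusted p = 0.68), Cdc6 at -0.99 ± 0.57 (0.7) and Mki67 at -1.19 ± 0.76 (0.72), and without it they were 0.07, -0.58 and 0.37. Mcm4 and Mcm2 were near 0, at 0.20 ± 0.26 and 0.13 ± 0.32 (adjusted p = 0.81 and 0.9), and at 0.02 and 0.1 without it. DESeq2 without TAC replicate 2 called Ccne1 as higher and 12 members as lower, among them Mki67, Foxm1, Plk1, Birc5, Kif11, Kif23 and Ccnb2, where it called 11.7% and 8.57% of all genes.

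KO-TAC against control compares loaded knockout with unloaded wild-type hearts. None of the 42 passed in edgeR or DESeq2, where edgeR called 0% of all genes and DESeq2 0.268% higher and 0.115% lower. The fitted difference was above 0 for 31 of 42 members (53.8% of all genes), with a median of 0.19 against 0.04 over all genes, 0.25 over replication and 0.16 over mitosis members. At an unadjusted p under 0.05 Cenpf alone was lower (2.38%, against 2.24% of all genes), and no member was higher (3.52% of all genes were). The groups did not overlap for Mcm6, Ccnb1 and Ube2c, higher in KO-TAC (7.14%, against 12.9% of all genes), and for Cenpf, lower (2.38%, against 13.6%). Fitted differences were 0.55 ± 0.36 (SE) for Mcm6, 1.11 ± 0.98 for Ccnb1, 1.03 ± 0.7 for Ube2c, 0.71 ± 0.56 for E2f1 and -0.34 ± 0.18 for Rrm1 (edgeR adjusted p = 0.85 to 0.88). Cenpf was called lower with quality weights (1.01% of all genes) and in DESeq2 without TAC replicate 2 (0.574% lower and 1.08% higher of all genes). The mitosis median moved to 0.5 without control replicate 1, the control heart with the highest median over mitosis members (0.62).

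Among the other genes of the pathway, all of which passed the filter, mitosis genes had a higher median than replication genes in TAC against control with all hearts, and not without TAC replicate 3. Of 50 other mitosis genes 45 were fitted as higher in TAC than in control hearts, with a median of 0.94, and TAC replicate 3 was the highest heart for 46. Of 45 other replication genes 25 were higher, with a median of 0.04, and of 18 G1 cyclins, kinases and pocket proteins 9 were, also with a median of 0.04. Without TAC replicate 3 these medians were -0.17 for other mitosis genes, -0.11 for other replication genes and -0.14 for the G1 genes. None passed in edgeR in the 3 comparisons. At an unadjusted p under 0.05 there were 6 other mitosis genes higher in TAC, and 7 other replication genes higher and 4 lower (13.2% and 8.08% of all genes), and DESeq2 called 3 other replication genes higher (4.98% of all genes). Quality weights called 5 other replication genes higher and 7 lower (14.1% and 16.1% of all genes), and edgeR without TAC replicate 2 called 12 other mitosis genes higher, and 8 other replication genes higher and 6 lower (13.5% and 14%). In KO-TAC against TAC the medians were -0.59 for other mitosis, 0 for other replication and -0.15 for G1 genes, and without TAC replicate 3 they were 0.32, 0.11 and 0. The D-type cyclins, which start the G1 phase, were each different. Ccnd1 was at 84.6, 62.9 and 69 CPM in control, 107, 69.6 and 163 in TAC and 86.4, 114 and 71.5 in KO-TAC hearts, and Ccnd2 at 140, 109 and 112, at 81.9, 110 and 69.6 and at 92.3, 138 and 131. Ccnd3 was at 37.2, 38.4 and 37.8 CPM in control, 45.1, 47.5 and 84 in TAC and 40.2, 48 and 35.4 in KO-TAC hearts, with all TAC above all control hearts. Their kinase partner Cdk4 was at 32.2, 37.3 and 37.2 CPM in control, 50.2, 36.9 and 50.8 in TAC and 47.3, 40.4 and 35.9 in KO-TAC hearts. Tk1, thymidine kinase, was at 5.04, 2.22 and 4.08, at 2.64, 4.71 and 8.01 and at 5.18, 2.36 and 2.55, with overlap throughout.

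Of 7 Cdk inhibitors, which hold the cycle, 5 were fitted as higher in TAC than in control hearts (71.4%, against 51.5% of all genes). Cdkn1a, which codes for p21 and is induced by p53, was at 9.11, 6.56 and 9.96 CPM in control, 33.1, 35.7 and 77.9 in TAC and 13.9, 8.49 and 16.5 in KO-TAC hearts. All TAC hearts, TAC replicate 2 among them, were above all others. Its log2 difference was 2.52 ± 0.39 (SE) in TAC against control (edgeR adjusted p = 0.11) and -1.92 ± 0.38 in KO-TAC against TAC hearts (adjusted p = 0.26); without TAC replicate 3 the values were 2 and -1.4. DESeq2 called both (adjusted p = 1.2e-06 and 0.0012), where it called 4.98% of all genes higher in the first comparison and 0.508% lower in the second. Cdkn1b, p27, was at 40.1, 41 and 42.2 CPM in control, 36.7, 29.4 and 33.9 in TAC and 39, 28.8 and 37.4 in KO-TAC hearts. Cdkn1c, p57, was at 14.7, 15.7 and 16.7 CPM in control, 22.8, 19.9 and 22.6 in TAC and 24.8, 13.2 and 15.5 in KO-TAC hearts.

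Markers of other cell types moved with TAC replicate 3 as well. Summed over 9 cardiomyocyte markers its level was 12000 CPM. Control hearts had 77400 to 78800 and KO-TAC hearts 42900 to 72200, TAC replicate 1 had 41300 and TAC replicate 2 had 85300, and all 9 were below every control. Summed over 8 markers of activated fibroblasts it was 1930. Control hearts had 97.4 to 104 and KO-TAC hearts 106 to 507, TAC replicate 1 had 872 and TAC replicate 2 had 150, with 7 of 8 above every control. Markers of fibroblasts at large summed to 3090 (9 of 9 above every control) against 1550 to 1740 in control hearts, and to 3010 in TAC replicate 1. Endothelial markers summed to 1990 (8 of 9 above every control) against 942 to 983 in control, 937 to 1120 in KO-TAC hearts and 1500 in TAC replicate 1, and macrophage and monocyte markers to 518 (10 of 11) against 263 to 283 and 265 to 447. Erythroid markers summed to 3480 (6 of 6), against 738 to 1170 in control, 839 to 1220 in KO-TAC hearts and 1430 in TAC replicate 2. Smooth muscle and pericyte markers summed to 519, against 1100 to 1160 in control hearts, with 3 of 7 above and 3 below every control. T, B and NK cell markers summed to 1.9 to 7.33 in any heart and neutrophil markers to at most 2.62, with Ly6g, Mpo and Elane at 0 in every library. TAC replicate 1 had the next highest activated fibroblast sum. Its median was 0.41 over replication and 0.45 over mitosis members, against 0.23 and 0.62 in control replicate 1. Its licensing genes alone were at 0.75. The part of these markers in the cell cycle values was not tested.

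**Figure D5:**
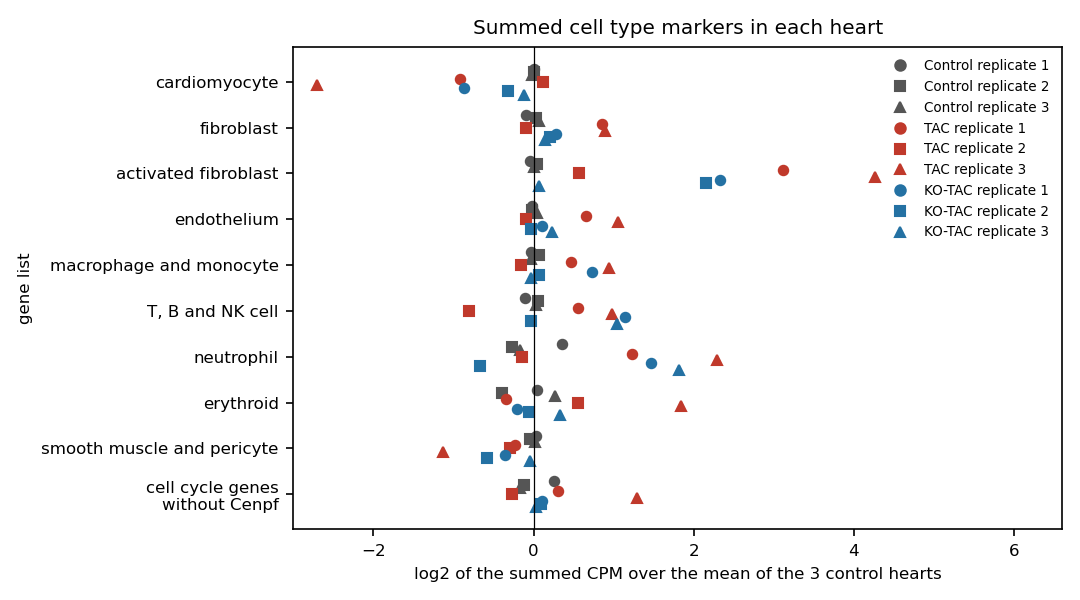
Log2 of the summed CPM of each marker list, and of the cell cycle genes without Cenpf, over the mean of the 3 control hearts (x axis), 1 point per heart. TAC replicate 3 (red triangle) is lowest for cardiomyocyte markers at 12000 CPM and highest for activated fibroblast, endothelial, macrophage and erythroid markers and for the cell cycle genes (311 CPM against 106 to 157 in the other hearts).

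Some member values can hold reads of a neighbouring gene, since the sources used here do not give the strand setting of the counting. In the annotation of GRCm38, 12 of the 42 members share exon bases with another gene, 67.3% of them in Gins2 (with Gse1), 29.3% in Kif20a (Cdc23), 22.8% in Ube2c (with Tnnc2, a troponin gene), 17.4% in Ccne2 (Ints8), 12.5% in Ccna2 (Exosc9) and 11.1% in Prc1 (Rccd1), all on the opposite strand. The other 30, among them Mki67, Cdk1, Ccnb1, Mcm6, Ccne1 and Cenpf, share none.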

How the data were processed

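Total RNA of 9 whole mouse hearts was isolated with Trizol, and libraries came from NEBNext's directional kit, per the labels' protocols. Values in the deposited table are raw counts, 1 row a gene symbol. Per the submitters' processing notes reads were handled with DESeq2 1.42.0, HISAT2 2.2.1, StringTie 2.2.1, SAMtools 1.15 and Trim Galore 0.6.10 on GRCm38 and mm10, in no given order. The sources used here do not give the counting tool, annotation, strand setting or handling of multimapping reads. Columns were matched to hearts through the labels. The main test was edgeR 4.0.16 (quasi-likelihood, run in R 4.3.3), with TMM scaling, filterByExpr at a minimum count of 10 and two-sided p, on 1 fit of all 9 libraries with the group as the only term. P-values were Benjamini-Hochberg adjusted over 19051 genes. The scripts were tested on simulated data, with a pass condition only at a spread between replicates below that of these data (coefficient of variation 42.1%). Log2 values per heart used a prior count of 2.

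Alternatives were RLE factors, DESeq2 1.42.0, limma-voom with quality weights (limma 3.58.1), 2 other filters, a fit to 2 groups, the replicate block, mitochondrial genes (23.8% to 38.5% of counts) removed, and each library left out. DESeq2 without TAC replicate 2 or 3 was chosen after seeing the data. The members, lists and tests were chosen with earlier results of these data known. Values per heart were given for 9 members (Mki67, Top2a, Ccnb1, Cdk1, Mcm2, Mcm5, Pcna, E2f1 and Foxm1), for the member of each role with the highest CPM and the smallest p in each comparison, for the 3 largest and 3 smallest differences in TAC against control and in KO-TAC against TAC, and for Ccnd1, Ccnd2, Ccnd3, Cdk4, Cdkn1a, Cdkn1b, Cdkn1c and Tk1 of the pathway. Myc, Gins2 and the markers Ryr2 and Myl2 were added beside them. Replicates were compared for copies of 1 library: the lowest chi-square per degree of freedom of a pair was 22.2, so all counted as separate. Exon overlaps were read from the GENCODE annotation of GRCm38 and promoter windows from RefSeq (GRCm38.p6).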

Additional observations from a re-analysis of the deposited data

How the results depend on the processing

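With 3 hearts a group, precision was low. The median SD of the members over TAC hearts was 1.216 on the log2 scale, beside a median fitted difference of 0.96 from control. Pcna, Rrm1, Ccne1 and Cenpf did not overlap between TAC and control hearts. The count of members called in TAC against control was 0 in edgeR, 2 in DESeq2, 6 in limma-voom with quality weights and 26 in DESeq2 without TAC replicate 2, and leaving out single libraries in edgeR gave 0 to 14. In KO-TAC against TAC it was 13 in DESeq2 without TAC replicate 2, and in KO-TAC against control 1 (Cenpf) both there and with quality weights. The median of the mitosis members ranged from -0.05 to 1.63 in TAC against control, -1.43 to 0.12 in KO-TAC against TAC and -0.01 to 0.5 in KO-TAC against control when single libraries were left out, with -0.05 and 0.12 in DESeq2 without TAC replicate 3. The cause was not tested.

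Of the differences given above for named members, some changed sign when a single library was left out. In TAC against control these ranged from -0.1 to 2.87 for Ccnb1, -0.04 to 2.13 for Cdk1 and -0.35 to 1.75 for Mki67. In KO-TAC against TAC the range was -1.65 to 0.37 for Mki67, -2.25 to 0.13 for Birc5, -1.8 to 0.07 for Kif23 and -0.06 to 0.39 for Mcm2. Differences of named members not given above also changed sign without TAC replicate 3. In TAC against control Top2a went from 0.94 to -0.19, Ccnb2 from 0.97 to -0.12 and Prc1 from 0.9 to -0.36, among others. In KO-TAC against TAC Ccnb1 went from -1 to 1.21, Cdk1 from -0.96 to 0.73 and Ccna2 from -0.96 to 0.41, among others. DESeq2 without TAC replicate 3 gave -0.1 for Ccnb1, -0.05 for Cdk1 and -0.36 for Mki67 in the first comparison, and 0.38 for Mki67, 0.14 for Birc5 and 0.07 for Kif23 in the second. In KO-TAC against TAC quality weights gave -0.07 for Mcm2 and -0.15 for Mcm4, and DESeq2 without TAC replicate 2 gave -0.03 for Mcm2. The other alternatives kept the direction of the named differences reported, and 29 of their values moved past the threshold, in DESeq2, with quality weights or without TAC replicate 2.

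The replicate numbers of the labels were tried as a block, although hearts of the same number did not deviate together (9 pairs, r of -0.25 to 0.12, 2 of them over 0.1). With the block 0 members were called in the 3 comparisons, and the medians in TAC against control were 0.91 over mitosis and 0.45 over replication members. The count columns of the TAC hearts carry other numbers than their labels. By these, TAC replicate 2 pairs with KO-TAC replicate 3 (r of 0.33) and TAC replicate 1 with KO-TAC replicate 2 (-0.01). Control replicates 2 and 3 then pair with TAC replicates 1 and 2 (-0.01 and 0). A block by the column numbers was not tested.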

Other observations

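Genes outside the naming rule, chosen after their values were seen, added to the replication picture. Gmnn, geminin, the inhibitor of the licensing factor Cdt1, was at 25.7, 24.7 and 23.9 CPM in control, 18, 24.4 and 4.7 in TAC and 24.8, 33.9 and 28 in KO-TAC hearts. TAC replicate 3 had the lowest Gmnn and the highest Cdt1 (3.5 CPM against 1.21 to 2.41 in the others). That heart was also the lowest for 30.8% and the highest for 29.6% of all genes. A link between Gmnn and Cdt1 was not tested. Timeless, a protein of the replication fork, was at 12.8, 13.5 and 14.8 CPM in control, 28.3, 18 and 61 in TAC and 31.3, 20.5 and 14.1 in KO-TAC hearts. All TAC hearts were above all controls for Timeless, with a log2 difference of 1.39 ± 0.43 (SE, edgeR adjusted p = 0.15) and of 0.74 without TAC replicate 3.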
